A study of Mus musculus with 6 samples.

Results

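The structural maintenance of chromosomes (SMC) genes *Smc1a*, *Smc2*, *Smc3*, *Smc4*, *Smc5* and *Smc6*, the cohesin subunit genes *Rad21* and *Stag1*, the insulator gene *Ctcf* and the noncanonical SMC gene *Smchd1* were compared between wildtype and *Smchd1* mutant embryos. They are the 10 genes found by symbol in a table that lists 22795 gene names, and all 10 passed a minimum mean level of 1 FPKM (fragment counts corrected for the length of the transcript and the size of the library). RNA came from 6 whole male embryos at E9.5, 3 that were *Smchd1*+/+ and 3 that were *Smchd1* MommeD1/MommeD1, from matings between heterozygous parents. The MommeD1 allele was made by chemical mutagenesis and carries a nonsense mutation in *Smchd1* in every cell of the embryo. Strains C57Bl6/J and FVB/n are named in the labels, whereas the paper's text describes a backcross to 129 T2/SvEms for these embryos, and the background of each embryo is not resolved here. No other allele, treatment or transgene was listed for either genotype.

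The table holds 1 FPKM value per genotype, pooled by the authors over the embryos of that genotype. No spread between embryos can therefore be given, no test across embryos was possible, and the depth of the libraries is unknown. Ratios are given as log2 of mutant over wildtype with 0.1 FPKM added to each value. A locus was counted as past the threshold at a ratio of 1.5-fold, which is a size and not a test. Over the 11980 named loci whose mean was 1 FPKM or more, the median log2 ratio was -0.01. Of these, 3.2% were past 1.5-fold with a higher value in mutant embryos and 1.08% with a lower value.

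SMC proteins are long coiled-coil ATPases that fold back on themselves at a hinge and work in pairs. Smc1a and Smc3 form the ring of cohesin, which holds sister chromatids together and extrudes chromatin loops. Smc2 and Smc4 are the core of the condensins, which compact mitotic chromosomes, and Smc5 and Smc6 form a complex with roles in DNA repair. Smchd1 shares the hinge with these proteins but carries an ATPase domain of the GHKL class, and it is known for its part in the silencing of the inactive X chromosome and of some autosomal gene clusters.

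*Smchd1*, the mutated gene, was far lower in mutant embryos, and it was the 1 gene of the 10 past 1.5-fold at its main entry, where 1.08% of all loci were past it and lower. Its locus lies on the minus strand of chromosome 17 of MM10 from 71344415 to 71475343, and its longest coding model in GENCODE M21 has 48 exons and a transcript of 7052 bases, of which 6021 are coding. It was at 34.0 FPKM in *Smchd1*+/+ embryos and 2.12 FPKM in *Smchd1* MommeD1/MommeD1 embryos, a log2 ratio of -3.94. The remaining transcript amounted to 6.23% of the wildtype value. The lower value is on the side that the labelled genotypes call for, and the transcript was not listed at 0. Of the 11980 loci, 5 had a lower ratio, and all 5 (*Mirlet7d*, *Snora33*, *Snora41*, *Snora69* and *Scarna8*) are small RNA entries listed at 0 FPKM in mutant embryos, of interest here only because they are all that lie below *Smchd1*. Among these loci, the 3 nearest to *Smchd1* in ratio were *Spink3* at -2.51, *1700011H14Rik* at -1.98 and the imprinted gene *Phlda2* at -1.89, so that the nearest was 1.43 away on the log2 scale.

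In wildtype embryos *Smchd1* transcripts were within the range of the canonical genes. Levels in FPKM are divided by transcript length and are set side by side between genes here. The gene models behind those lengths are not given, so such comparisons are approximate. *Rad21*, the kleisin that closes the cohesin ring, was the most abundant at 112 FPKM in wildtype and 113 FPKM in mutant embryos. *Smc4* followed at 64.4 and 54.3 FPKM, *Smc1a* at 51.8 and 52.8 FPKM and *Ctcf* at 51.3 and 49.8 FPKM. *Smchd1* came at place 7 of the 10 in wildtype embryos, above *Stag1*, *Smc6* and *Smc5*, and at place 10 in mutant embryos. Its wildtype level was 69.7% of that of *Smc3* and 194% of that of *Smc5*. In mutant embryos these shares were 4.76% and 13.9%. The order of the other 9 genes was the same in both genotypes. Whether neighbours in that order differ beyond the spread between embryos cannot be told from pooled values.

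**Figure D1:**
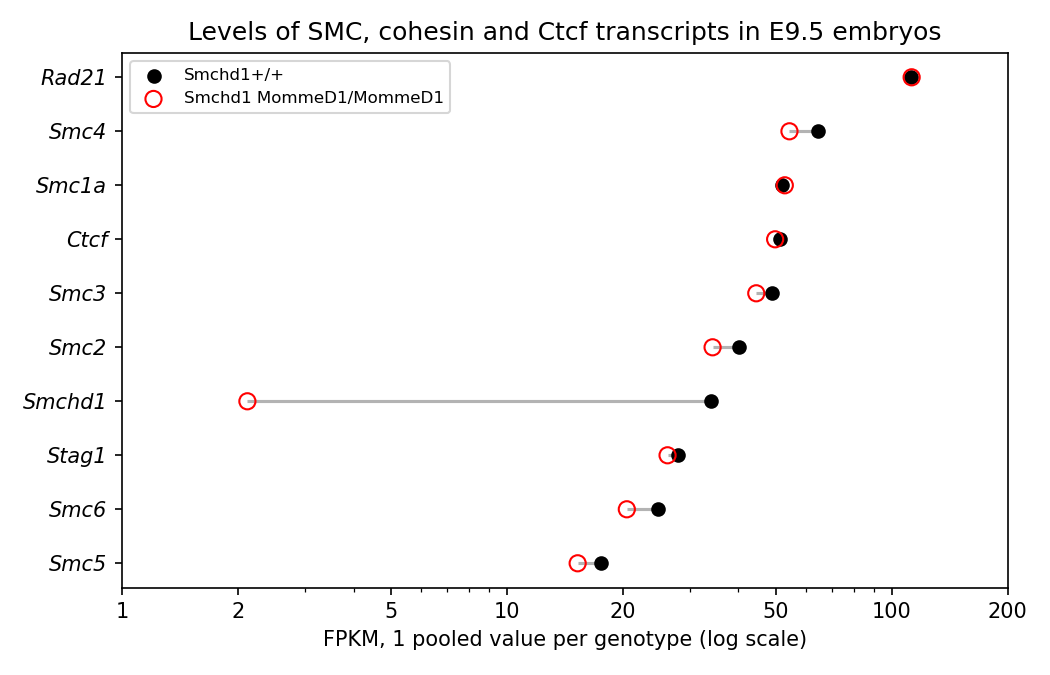
FPKM of the 10 genes on a log axis, 1 pooled value per genotype, with filled points for Smchd1+/+ and open red points for Smchd1 MommeD1/MommeD1 embryos. The points of *Smchd1* lie at 34.0 and 2.12 FPKM, while those of each other gene lie close together.

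Among the 9 genes other than *Smchd1*, the log2 ratios ran from -0.27 for *Smc6* to 0.03 for *Smc1a*, with a median of -0.13. None of the 9 was past 1.5-fold at its main entry, where 4.27% of all loci were past it in either direction. Among 961 loci with transcript lengths in the range of all 10 genes and mean FPKM in that of the 9, 0.208% were past it and lower. Another 0.104% were past it and higher, so a count of 0 is near the background. The 961 include the 10 genes themselves, and *Smchd1* is among the 2 that were past it and lower. The ratio of *Smchd1* lay below the median of the other 9 by a log2 difference of -3.81, and below each of them by -3.68 to -3.97. The difference from the median was also -3.81 after rescaling to the same total FPKM over named loci of 200 bp or more. With 1 FPKM added it was -3.36.

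Among the cohesin genes, *Smc1a* and *Rad21* were close to equal in the genotypes and *Smc3* and *Stag1* were slightly lower in mutant embryos. *Smc1a*, on the X chromosome from 152016389 to 152061993, had a log2 ratio of 0.03, whereas its partner *Smc3*, at 48.8 FPKM in wildtype and 44.5 FPKM in mutant embryos, had one of -0.13. *Rad21* had a ratio of 0.00 to 2 decimals and was above 0 as deposited. It was at -0.01 after rescaling to the same total FPKM over named loci of 200 bp or more. *Stag1*, which encodes a subunit that binds the ring to chromatin, was at 27.8 and 26.2 FPKM (-0.09). *Smc1a* was 1.81% and *Rad21* 0.185% above the wildtype value, while *Smc3* was 8.87% and *Stag1* 5.94% below it. The median over 425 X-linked loci was -0.07.

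The condensin pair was lower in mutant embryos by similar amounts. *Smc2*, on chromosome 4 from 52438985 to 52488284, had 40.0 FPKM in wildtype and 34.3 FPKM in mutant embryos, a log2 ratio of -0.22. *Smc4*, on chromosome 3 from 69004972 to 69034625, had a ratio of -0.25. Both were thus about as far below 0 as each other, 14.4% and 15.7% lower than wildtype. The microRNA entries that share the *Smc4* locus were listed at 0 FPKM in both genotypes.

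The SMC5/6 pair had the lowest levels of the canonical genes in both genotypes. *Smc5*, on chromosome 19 from 23206441 to 23273897, had 17.6 FPKM in wildtype and 15.3 FPKM in mutant embryos (-0.20). *Smc6*, on chromosome 12 from 11265886 to 11319796, had 24.7 and 20.5 FPKM, 17.0% lower. Its ratio of -0.27 was the lowest of the canonical genes, and 777 of all loci, or 6.49%, had a lower one.

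*Ctcf*, which encodes the zinc finger protein that halts cohesin at loop anchors, was listed at 2 entries with the same span on chromosome 8, from 105624372 to 105682922. The more abundant entry had a log2 ratio of -0.04. The other was at 3.12 FPKM in wildtype and 1.69 FPKM in mutant embryos, a ratio of -0.85, so that it was past 1.5-fold where the main entry was not. The authors' program marked both entries as failed, so both values are uncertain. GENCODE places a long noncoding RNA gene, *Gm5914*, on the minus strand from 105624336 to 105637485, across the *Ctcf* start, and the annotated span of the protein-coding gene *Agrp*, from 105566698 to 105637393 on the same strand, also crosses it. The libraries did not keep the strand, so reads of overlapping genes there cannot be told apart.

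**Figure D2:**
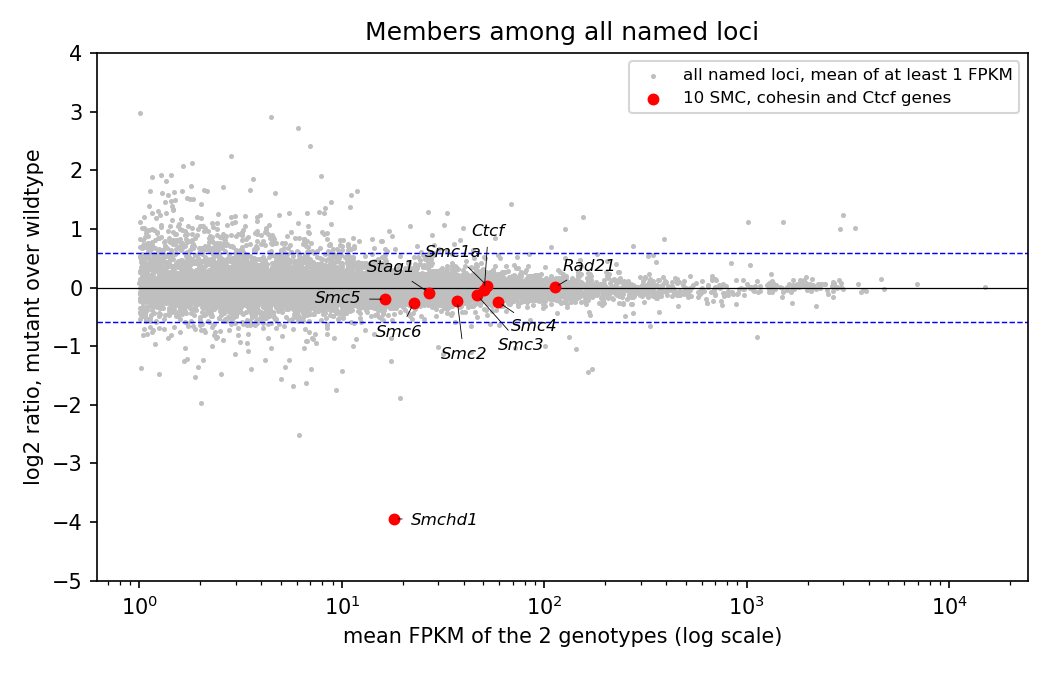
Log2 ratio of mutant over wildtype against mean FPKM (log axis) for all named loci whose mean was 1 FPKM or more, in grey, and for the 10 genes, in red, with *Ctcf* at its more abundant entry. Dashed lines mark 1.5-fold, and 8 loci lie outside the vertical range. *Smchd1* lies at -3.94 and the other 9 genes lie between the dashed lines.

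Ratios between partners were taken within each genotype, and they differed between the genotypes by 0.02 to 0.16 on the log2 scale. *Smc1a* was at 1.06 times *Smc3* in wildtype and 1.19 times in mutant embryos. *Smc2* was at 0.622 and 0.631 times *Smc4*, and *Smc5* was at 0.711 and 0.745 times *Smc6*. The log2 difference between the genotypes was 0.02 for the condensin pair, 0.07 for the SMC5/6 pair and 0.16 for the cohesin pair, which was the largest of the pairs examined. *Rad21* was at 2.30 and 2.53 times *Smc3*. The alternative cohesin subunits *Stag1* and *Stag2* stood at a ratio of 0.770 in wildtype and 0.825 in mutant embryos. Such ratios need no scaling between the libraries, but their spread between embryos is not known.

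Of the 9 genes, 7 had a ratio below 0 as deposited. After centring on the median of all loci, 7 did. After rescaling to the same total FPKM over named loci of 200 bp or more, which multiplied mutant values by 0.989, 8 did. Over all loci 51.9% were below 0, and over the 961 loci of like length and mean FPKM 61.7% were, with a median of -0.04. The central 90% of those 961 loci ran from -0.24 to 0.22, with *Smc4* and *Smc6* just below that range. The 6 canonical SMC genes had a median of -0.21, and their summed level was 247 FPKM in wildtype and 222 FPKM in mutant embryos. In whole embryos a smaller share of cells that express a gene and less RNA per cell cannot be told apart.

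Marker genes of cell populations in the whole embryo were set beside these values. Their lists were chosen with earlier results of these data known, so the counts below only describe the listed genes. Over all loci, 4.27% were past 1.5-fold in either direction. Of 12 genes of dividing cells, where SMC genes are highly expressed, 0 were past 1.5-fold, with a median of -0.04 and a range of -0.13 (*Pcna*) to 0.08 (*Plk1*). Of 9 neuron markers, 8 were past it and higher in mutant embryos, with a median of 1.37 and a summed level of 105 FPKM in wildtype and 228 FPKM in mutant embryos. Of 7 erythroid markers, 6 were past it and higher (log2 ratios from 0.57 to 1.23, summed level 6009 and 12693 FPKM). Of 7 tail bud markers, 5 were past it and lower (median -1.24, summed level 50.6 and 22.7 FPKM), and among 4 visceral endoderm markers 3 were lower and *Afp* was higher. Among the latter, *Apob*, *Cubn* and *Amn* did not reach a mean of 1 FPKM. The part of these markers in the values of the SMC genes was not tested. The 8 reference genes, *Rala* among them, had a median of -0.05 and none was past 1.5-fold.

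Genes that work with the SMC proteins were described in the same way. Of 29 further genes of these complexes, all in the table, 24 reached a mean of 1 FPKM and 0 of these were past 1.5-fold, with a median of -0.10 against -0.01 over all loci. The count is near the background of 4.27%. The 5 below that level were *Stag3*, *Smc1b*, *Rec8* and *Rad21l*, which encode cohesin subunits of meiotic cells, and *Eid3*. The mitotic subunit gene *Stag2* was at 36.1 FPKM in wildtype and 31.7 FPKM in mutant embryos (-0.19).

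All 13 cohesin regulators were measured, and their ratios ran from -0.29 for *Esco1*, which encodes an acetyltransferase of Smc3, to 0.05 for *Pttg1*, the securin gene. *Nipbl*, the cohesin loader gene, was at 15.7 and 14.5 FPKM, and *Wapal*, whose product releases cohesin, at 26.4 and 23.2 FPKM. Both were slightly lower in mutant embryos, at -0.11 and -0.19. *Hdac8*, which encodes the Smc3 deacetylase, had 4.87 FPKM in either genotype. *Pds5a*, at -0.11, was also marked as failed by the authors' program.

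The non-SMC subunits of condensin lay on both sides of 0. *Ncaph*, *Ncapd2* and *Ncaph2* were at 0.05, 0.02 and 0.03, and *Ncapg* at 35.2 FPKM in wildtype and 29.2 FPKM in mutant embryos had the lowest ratio, -0.27. Among the 4 measured non-SMC subunits of the SMC5/6 complex the median was -0.10. *Ndnl2*, which encodes a protein of the MAGE family like the imprinted gene *Ndn*, was at 23.2 and 21.7 FPKM.

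The GHKL ATPases, the class to which the ATPase domain of Smchd1 belongs, include heat shock protein 90, DNA topoisomerases, mismatch repair proteins and Morc proteins. Of 15 listed, 13 passed the filter, with a median of -0.05, while *Morc1* and *Morc2b* were nearly absent. Of the 13, 0 were past 1.5-fold, which is near the 4.27% of all loci past it in either direction. *Morc4*, on the X chromosome, had the lowest ratio at 5.12 FPKM in wildtype and 3.64 FPKM in mutant embryos (-0.48), and *Morc3*, at 10.7 and 8.77 FPKM, had one of -0.28. The DNA topoisomerase genes *Top2a* and *Top2b* were at -0.05 and -0.03. *Lrif1*, listed under an older symbol, encodes a partner of Smchd1 that binds heterochromatin protein. It was at 5.79 FPKM in wildtype and 6.63 FPKM in mutant embryos (0.19). The heterochromatin protein genes *Cbx1*, *Cbx3* and *Cbx5* lay between -0.07 and -0.01. *Ctcfl*, the testis paralog of *Ctcf*, was at 0.333 and 0.371 FPKM, and the promoter factor genes *Yy1* and *Zfp143* were at -0.12 and -0.03.

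**Figure D3:**
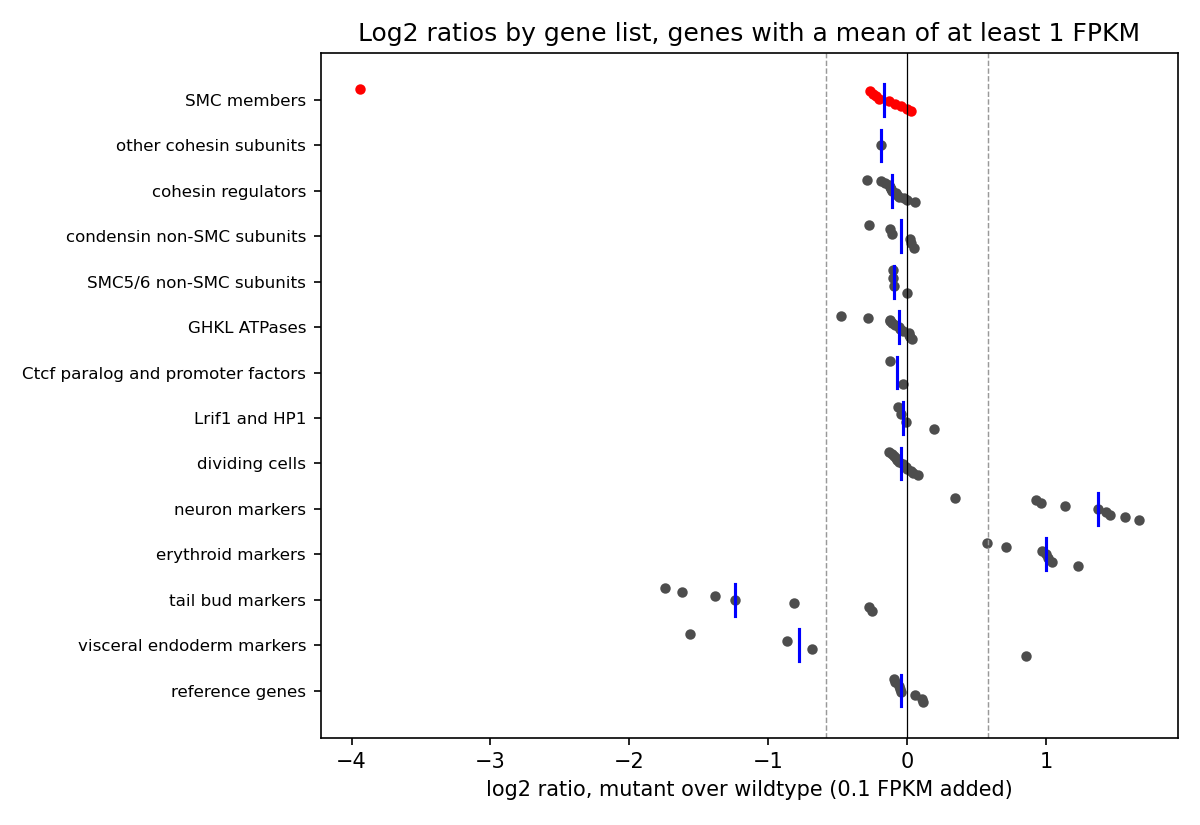
Log2 ratio of mutant over wildtype for genes whose mean was 1 FPKM or more, 1 point per gene, by gene list. The 10 members are in red, blue bars mark the median of each list and dashed lines mark 1.5-fold. *Smchd1* lies at -3.94, the complex and GHKL lists lie within the dashed lines, and neuron, erythroid, tail bud and visceral endoderm markers lie largely outside them. The lists were chosen with earlier results known.

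The loci around *Smchd1* differed far less than *Smchd1* itself. Of the 5 nearest loci on either side whose mean was 1 FPKM or more, 0 were past 1.5-fold, near the 4.27% of all loci past it. Their log2 ratios ran from -0.25 for *Wdr43* to 0.15 for *Lpin2*, with a median of -0.13. *Emilin2*, 33.0 kb away at lower coordinates, was at 11.2 FPKM in wildtype and 10.2 FPKM in mutant embryos. *Ndc80*, a kinetochore gene 20.8 kb away on the other side, was at 20.9 and 17.8 FPKM (-0.23). These flanking loci were 8.76% and 14.8% below wildtype, against 93.8% for *Smchd1*. Of the 10 loci, 8 were below wildtype, and *Lpin2* and the shared entry of *Myl12a* and *Myl12b* were above it. Among all loci 51.9% were below wildtype. In mice backcrossed to C57Bl6/J, the paper reports that FVB/n alleles linked to the mutation were retained from *Tgif1* to *Ttc27*. The 10 loci lie in that stretch, and whether strain alleles there differed between the genotypes of these embryos was not tested. A difference of strain there and the mutation cannot be told apart in these ratios.

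**Figure D4:**
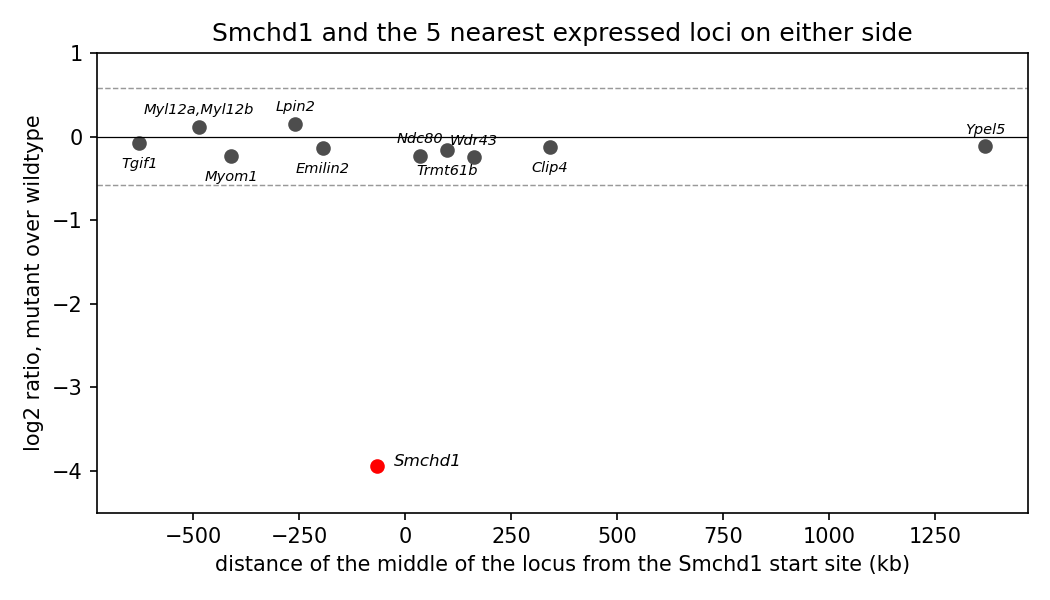
Log2 ratio of mutant over wildtype for *Smchd1* (red) and the 5 nearest named loci on either side whose mean was 1 FPKM or more (grey), by distance of the middle of each locus from the *Smchd1* start site in kb. Dashed lines mark 1.5-fold. *Smchd1* lies at -3.94 and its neighbours between -0.25 and 0.15.

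Annotated promoter windows of members are shown for context, and which start sites were used in these embryos was not measured here. RefSeq promoters of GRCm38.p6, from 250 bases before to 50 bases after the start, were matched by symbol for 8 of the 10 genes. *Smchd1* is given as the mutated gene, and *Smc6* and *Smc1a* as the canonical genes with the lowest and highest ratio. The window of *Smchd1* is chr17:71475294-71475593 on the minus strand, that of *Smc6* is chr12:11265636-11265935 on the plus strand and that of *Smc1a* is chrX:152016178-152016477 on the plus strand. Capitals mark the core of the cell cycle genes homology region (CHR), TTTGAA, on either strand.
Smchd1: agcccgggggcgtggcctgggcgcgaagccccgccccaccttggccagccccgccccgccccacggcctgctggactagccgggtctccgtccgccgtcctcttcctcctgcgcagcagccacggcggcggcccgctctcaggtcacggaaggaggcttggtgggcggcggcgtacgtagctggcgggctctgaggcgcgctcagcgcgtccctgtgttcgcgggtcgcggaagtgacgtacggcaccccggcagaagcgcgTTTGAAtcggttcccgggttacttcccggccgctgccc
Smc6: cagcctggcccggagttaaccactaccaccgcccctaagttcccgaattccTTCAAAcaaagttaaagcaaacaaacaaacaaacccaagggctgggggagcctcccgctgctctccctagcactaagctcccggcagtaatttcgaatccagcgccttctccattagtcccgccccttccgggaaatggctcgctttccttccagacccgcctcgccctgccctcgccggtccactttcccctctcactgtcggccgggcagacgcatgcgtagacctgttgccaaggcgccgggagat
Smc1a: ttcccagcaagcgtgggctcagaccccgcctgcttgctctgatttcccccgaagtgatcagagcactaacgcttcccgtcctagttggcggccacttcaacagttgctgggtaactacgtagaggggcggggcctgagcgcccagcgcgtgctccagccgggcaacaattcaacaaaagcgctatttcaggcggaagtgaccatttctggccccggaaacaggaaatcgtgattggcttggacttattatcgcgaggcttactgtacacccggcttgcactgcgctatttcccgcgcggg
The *Smchd1* window holds 40 CpG dinucleotides, more than 96.1% of 32851 mouse promoter windows of the same length, and 23 were counted for *Smc1a* and 20 for *Smc6*. The CHR core was found in 4 of the 8 member windows (*Ctcf*, *Smc2*, *Smc6* and *Smchd1*) and in 17.9% of all windows. The GC box core GGGCGG, on either strand, was found in 7 of the 8 and in 35.7% of all windows. *Smc5* was without it, and its annotated window, chr19:23272550-23272849 on the minus strand, lies inside the locus and holds 6 CpG dinucleotides. All windows had a median of 7 CpG dinucleotides, and the part of base composition in these matches was not tested. The CCAAT box was found in 3 of the 8 (37.4% of all), and the E2F-type core TTCCCGC in *Smc1a* and *Stag1* (4.6% of all). No motif searched contains another. The core TGACGT of the cyclic AMP response element was found in the *Smchd1* window alone among the 8 and in 7.51% of all windows. A match describes these letters only, and binding at these windows was not measured here.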

How the data were processed

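RNA-seq data of 6 male embryos at E9.5, 3 *Smchd1*+/+ and 3 *Smchd1* MommeD1/MommeD1, were assigned to groups by the labelled genotype. The pooled values carry the names Smchd1_M and Smchd1_P, which were read as MommeD1/MommeD1 and +/+. Per the labels and the paper, the authors mapped single-end reads from nondirectional libraries to MM10 with TopHat2 2.0.6 and Bowtie2 2.0.2 and compared the genotypes with Cuffdiff 2.0.2. The gene models of that step are not given in the sources used here. The unit of the deposited values is FPKM, with 1 value per genotype for each of 24207 loci, pooled by the authors over embryos. The authors' columns of fold change, test statistic, p-value and q-value hold their own comparison and were not used. The depth of each library is unknown, so no interval was computed.

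Log2 ratios were computed with 0.1 FPKM added, over 11980 named loci whose mean was 1 FPKM or more, and a ratio of 1.5-fold was the threshold. FPKM is relative to all fragments of a library and is divided by length, so other loci bear on every value. Of the summed FPKM, 1110 unnamed loci held 36.8% in mutant and 39.3% in wildtype embryos, which is not a share of reads. The more abundant entry was used where a symbol had several. Of the 11980 loci, 117 were marked as failed by the authors' program and kept. A GENCODE M21 transcript length was found for 10871 of the 11980 loci, or 90.7%. Each locus start was taken as the deposited start plus 1, since 8950 of 20099 symbols then had the RefSeq start, against 571 otherwise.

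Named genes were the 10 members, genes of fixed lists, the 3 loci nearest to *Smchd1* in ratio and the 5 nearest loci on either side of it. The 3 promoters shown, the small RNA loci below *Smchd1* and the second *Ctcf* entry were singled out after their values were seen. The members and lists were chosen with earlier results of these data known. Alternatives were other pseudocounts, filters, folds and scalings. The calculation was tested on simulated data. *Map2* of the neuron list was not analysed here. Python 3.11.15, numpy 2.4.6, pandas 2.3.3 and matplotlib 3.10.9 were used.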

Additional observations from a re-analysis of the deposited data

How the results depend on the processing

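No paired analysis was possible because the table holds 1 pooled value per genotype, and leaving out each embryo was not run for the same reason. The log2 ratio of *Smchd1* ran from -4.01 to -3.49 over 6 alternatives, and the median of the other members from -0.17 to -0.13 over 7. With 1 FPKM added, *Smchd1* was at -3.49 and its difference from the other members at -3.36, since 1 FPKM is large beside its mutant value. Among the members at their main entries, *Smchd1* alone was past the threshold in all 10 alternatives run for the lists. *Ctcf* dropped out where failed loci were left out. In all 10, 0 of the further complex genes were past the threshold, whereas 1 GHKL gene, *Morc4*, was past the lowest fold tried. Rescaling to the same total over named loci of 200 bp or more shifted the median of all loci by -0.02 and turned *Rad21* to -0.01. Summed over all loci, named or not, FPKM was 941511 in mutant and 970248 in wildtype embryos. A scaling to that sum, which would raise the mutant values instead of lowering them, was not run.

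The counts over all loci, 383 higher and 129 lower, depended on the threshold and filter. They were 219 and 75 with 1 FPKM added, 972 and 387 with no filter on mean FPKM, 111 and 56 at a mean of at least 5 FPKM, 103 and 42 at 2-fold, and 992 and 513 at the lowest fold tried. Leaving out loci that the authors' program marked as failed, and loci under 200 bp, was chosen after seeing the data and moved no count by over 1.5 times. All partner ratios moved by less than 0.1 on the log2 scale with 1 FPKM added.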
